A study of Mus musculus with 4 samples.

Results

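The 37 lipid metabolism genes examined here cover the uptake, synthesis, activation, storage and oxidation of fatty acids, the synthesis and export of cholesterol, and the factors that control them. Accessible regions were taken as theirs by position: a region counted for a member when its midpoint lay inside the gene, or lay outside all protein-coding genes and nearest, within 100 kb, to an end of that gene. All 37 genes were found in the GRCm38 annotation and each had at least 1 region, as did 14086 of all 21900 protein-coding genes. Together they held 381 of the 92372 deposited rows, which merged, where they overlapped, into 210 of 52537 regions.

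Chromatin accessibility was measured by ATAC-seq, in which a transposase inserts sequencing adapters into open DNA, in CD3+ CD4+ T helper cells. The mice had received HDM (house dust mite) extract by the intranasal route for sensitization and challenge, a model of asthma. Th2 cells were gated as CD44+ ST2+ CD30L+. Other effector cells (CD44+ ST2- CD30L+, called memory cells outside the Th2 lineage in the protocol) and regulatory T cells (Treg, CD25hi CD30L-) were sorted, like the Th2 cells, from lung with airways at day 15. Naive cells (CD44lo CD62Lhi) came from mLN by the protocol, which abbreviates the tissue so, but from lung and airways by their source label. If the protocol holds, each comparison with them is also one between tissues. For each of the 4 populations 3 biological replicates were sorted, with 1000 cells per subset. Neither strain nor age of the mice is stated in the labels. The deposited data are 6 lists of differential regions, 1 for each pair of populations, with a position and a log2 fold per region. Folds are the authors' own values, given here by their size with the higher population named, and positions are those of the merged region where rows of different lists overlap. Distances are taken from midpoints, and a region is called inside or outside a gene by the midpoints of its rows.

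No list holds a replicate value, a count or a p-value, so depth is unknown, no fold carries an error, and no test over samples could be made. A region absent from a list was not called different, which does not show that it was equal. In the 3 lists with other effector cells all regions were lower in those cells, and no label says whether the lists were filtered by direction. Marker genes were counted in the same way. Against naive cells and between Treg and Th2 cells, the directions that set the sign were these: the 6 Th2 markers had 27 regions higher in Th2 over naive cells and 0 in reverse, the 4 Treg markers 17 higher in Treg than in Th2 cells and 0 in reverse, and the 4 naive markers 36 higher in naive than in Th2 cells and 0 in reverse. The markers, which include Pparg, also settled which sign of the fold means which population, so they are no independent check of it. Other marker counts did not separate the populations: the Th2 markers had 2 regions on the Th2 side and 1 on the Treg side between those cells, or 3.77% and 1.89%, and the Treg markers 4 each way between Th2 and naive cells. Gata3, the Th2 master regulator, which Treg cells also express, had 0 regions listed between Th2 and naive cells and 1 higher in Treg over Th2 cells. Of the pan T cell markers, Cd3e had 5 regions, Cd3d 1 and Cd4 0. Of these 6 regions, 3 were higher in naive over Th2 cells and 0 in reverse, and over other effector cells 0 were higher in Th2, 2 in Treg and 6 in naive cells.

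As background, T cells take up fatty acids through transporters such as CD36 and carry them on fatty acid binding proteins. They also build fatty acids from acetyl-CoA through ACLY, ACC1 and FASN. SREBP transcription factors switch on the genes of sterol and fatty acid synthesis when membrane sterol is low, INSIG1 holds them back, and the LXR receptors (Nr1h2 and Nr1h3), with their partner RXRA, respond to oxysterols and raise sterol export. Lipid is stored in droplets coated by PLIN2 or burned in mitochondria, which CPT1A admits it to. PPARG, a lipid-sensing nuclear receptor, is known as a regulator of lung Th2 cells. It is no member here.

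Promoter sequences, from 250 bases before to 50 after a start site, were held in the RefSeq table (GRCm38.p6) for 27 of the 37 members, in 33 windows. The members Fabp4, Fabp5, Lpl, Scd1, Scd2, Fads1, Dgat1, Dgat2, Sqle and Abcg1 had none there. Of the 33 windows, 24, of 21 members, overlapped a listed region. The 5 windows below are examples. None of them is among the 7 windows overlapped by a region higher in naive over other effector cells, or 21.2% of the 33 against 4.51% of all promoter windows. The window of Cd36 was the only member window overlapped by a region from the lists that compare naive, Th2 and Treg cells with one another: it was higher in Th2 than in Treg cells. Insig1 stands for windows higher in Th2 over other effector cells alone, Elovl5 and Fasn for those higher in Treg over other effector cells alone, and Plin2 for those higher in both. Capitals mark matches, on either strand, to CCAAT (the letters bound by NF-Y, a frequent partner of SREBP), AGGTCA (the core motif of nuclear receptors) and CACGTG (the E-box).
Cd36, chr5:17835847-17836146, minus strand: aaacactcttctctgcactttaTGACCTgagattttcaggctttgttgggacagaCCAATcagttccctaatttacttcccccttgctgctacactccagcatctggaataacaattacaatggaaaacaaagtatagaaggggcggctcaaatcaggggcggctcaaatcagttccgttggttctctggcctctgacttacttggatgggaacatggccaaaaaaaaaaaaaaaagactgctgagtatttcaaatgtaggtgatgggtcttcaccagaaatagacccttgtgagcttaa
Insig1, chr5:28071162-28071461, plus strand: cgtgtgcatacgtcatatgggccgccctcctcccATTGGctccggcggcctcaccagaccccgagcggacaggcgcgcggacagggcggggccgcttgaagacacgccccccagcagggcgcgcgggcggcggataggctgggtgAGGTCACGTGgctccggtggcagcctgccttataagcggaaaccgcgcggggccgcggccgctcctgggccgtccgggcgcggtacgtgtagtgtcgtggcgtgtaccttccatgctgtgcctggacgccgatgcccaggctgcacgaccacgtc
Plin2, chr4:86670010-86670309, minus strand: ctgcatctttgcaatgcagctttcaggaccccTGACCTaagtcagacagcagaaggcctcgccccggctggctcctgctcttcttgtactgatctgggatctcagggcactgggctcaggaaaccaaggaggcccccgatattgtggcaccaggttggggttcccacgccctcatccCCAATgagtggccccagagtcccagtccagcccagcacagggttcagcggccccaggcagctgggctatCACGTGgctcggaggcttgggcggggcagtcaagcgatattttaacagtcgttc
Elovl5, chr9:77917115-77917414, plus strand: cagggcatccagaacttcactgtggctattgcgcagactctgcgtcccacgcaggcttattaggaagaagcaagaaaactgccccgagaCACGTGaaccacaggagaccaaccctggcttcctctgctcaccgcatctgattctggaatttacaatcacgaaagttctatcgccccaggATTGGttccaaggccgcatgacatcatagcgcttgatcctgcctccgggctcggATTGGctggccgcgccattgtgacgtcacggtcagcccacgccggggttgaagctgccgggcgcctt
Fasn, chr11:120824498-120824797, minus strand: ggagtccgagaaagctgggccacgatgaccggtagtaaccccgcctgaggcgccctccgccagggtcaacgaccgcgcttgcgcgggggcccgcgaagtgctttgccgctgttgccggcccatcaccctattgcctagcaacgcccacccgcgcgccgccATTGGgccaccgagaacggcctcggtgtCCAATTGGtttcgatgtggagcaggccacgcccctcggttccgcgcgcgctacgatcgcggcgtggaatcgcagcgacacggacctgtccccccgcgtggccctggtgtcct

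A CCAAT match was found in 45.5% of the 33 member windows, against 37.4% of all 32851 promoter windows of the same length. AGGTCA was found in 27.3% against 16.3%, and CACGTG in 15.2% against 7.15%, in the windows of Abca1, Elovl5, Insig1, Mgll and Plin2. In Insig1 the AGGTCA and CACGTG matches overlap, the 1 such overlap between motifs in these windows. The sterol response letters TCACNCCAC were found in 2 of the 33 windows, those of Hmgcs1 and of the downstream start site of Acsl1, or 6.06% against 1.24%, and neither window overlapped a listed region. AGGTCA repeated at a spacing of 1 or 4 bases (DR1 and DR4), AGATAA, the motif of GATA factors, and TGANTCA, that of AP-1, had 0 matches in member windows, against 0.0396%, 0.0152%, 11.2% and 7.81% of all windows. The windows of Mgll overlap one another, as do those of Nr1h3, so they share sequence. A match describes letters and not binding, and its absence says only that the letters are not in the window.

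Across the whole set, the members' share of listed regions was set beside that of all regions in each direction. Higher in Th2 than in naive cells were 24 of the 210 member regions, over 14 genes, or 11.4% (exact 95% interval 7.46% to 16.5%), against 9.67% of all merged regions. Naive cells were higher at 15, over 12 genes, or 7.14% (4.05% to 11.5%) against 9.21%. Between Treg and naive cells, 9 were higher in Treg cells, or 4.29% (1.98% to 7.98%) against 6.64%, and 8 in naive cells, or 3.81% (1.66% to 7.37%) against 5.76%. All 4 intervals included the share of all regions. The intervals cover counting error only, since regions of 1 gene are not independent.

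Th2 cells were higher than Treg cells at 20 member regions over 12 genes, or 9.52% (5.91% to 14.3%) against 6.72% of all regions. Treg cells were higher at 8, over 4 genes, or 3.81% (1.66% to 7.37%) against 3.34%. Single genes weighed on both counts: 5 of the 20 were at Cd36, and without it the share was 7.43%, while 4 of the 8 were at Elovl6, without which 4 regions were left, or 2.09%. Over other effector cells, 133 member regions of 34 genes were higher in Th2 cells, or 63.3% (56.4% to 69.9%), against 53.2% of all regions. Treg cells were higher at 89 regions of 30 genes, or 42.4% (35.6% to 49.4%) against 46.7%, and naive cells at 71 regions of 23 genes, or 33.8% (27.4% to 40.6%) against 33.7%. The Th2 direction was thus the 1 of the 9 whose interval did not include the share of all regions. The comparisons share populations and are not independent of one another.

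**Figure D1:**
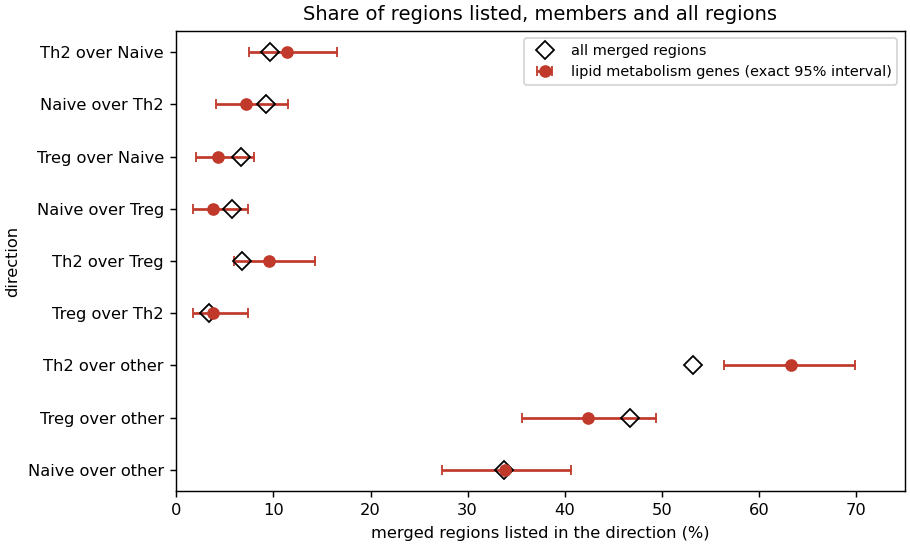
Percent of merged regions listed in each direction (higher over lower population; "other" is other effector cells), for the 210 regions of lipid metabolism genes (filled circles, bars are exact 95% binomial intervals) and for all 52537 regions (open diamonds). The interval of the members leaves out the value of all regions in Th2 over other effector cells alone, 63.3% against 53.2%.

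Medians of the log2 folds in the authors' deposited tables were computed for the members and for each whole list. The median log2 fold of member regions was 5.43 in Th2 over naive cells against 5.59 for all regions of that direction, 5.32 against 5.28 in naive over Th2, and 5.01 against 5.72 in Treg over naive cells. It was 6.02 against 5.50 in Th2 over Treg cells, the direction in which the members' median stood farthest above that of all regions. Over other effector cells it was 5.38, 5.36 and 5.38 in Th2, Treg and naive cells, against 5.40, 5.38 and 5.41.

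**Figure D2:**
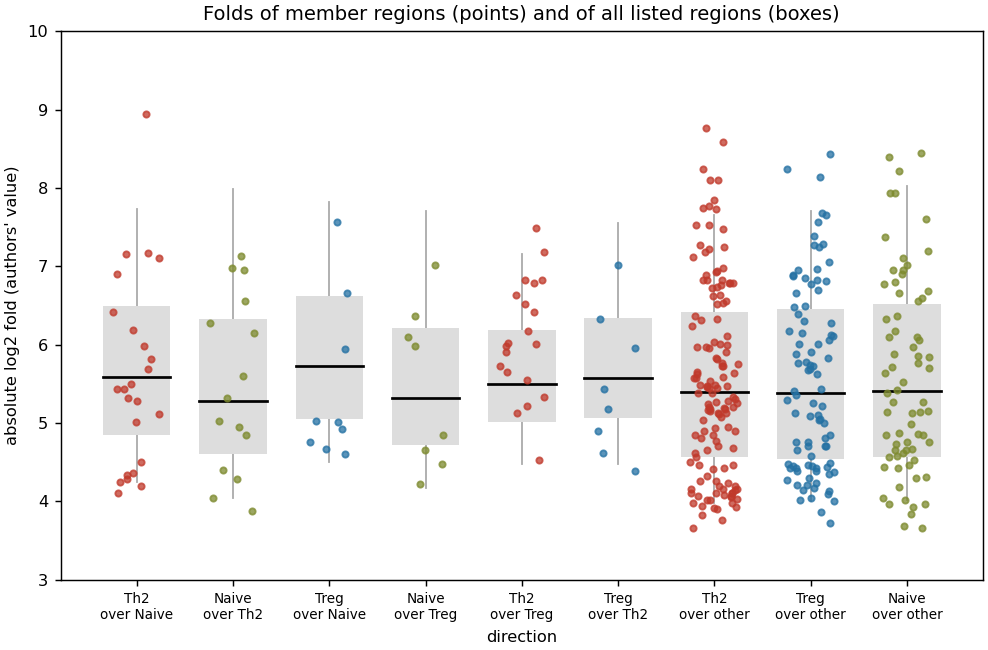
Absolute log2 fold of each member region (points, coloured by the higher population) in each direction, over the spread of all listed regions (box, 25th to 75th percentile; thin line, 5th to 95th; black bar, median). The member points run from 3.66 to 8.94, the highest being a region of Plin2 in Th2 over naive cells.

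Counted by gene between Th2 and naive cells, 9 members were higher in Th2 cells alone, 7 in naive cells alone, and 5 had both directions. The lists among naive, Th2 and Treg cells named 24 members, and the other 13 were listed only against other effector cells: Fabp4, Scd1, Acaca, Acly, Acsl4, Acsl5, Fads2, Hadha, Acadl, Pnpla2, Dgat1, Sqle and Nr1h2. By region, 70.0% of member regions were listed only against other effector cells, close to the 68.5% of all regions. Shares over all genes were not computed for these counts of members. Members had between 1 and 19 regions, with a median of 5, and across the 37 genes the number of regions had a Spearman rho of 0.41 with gene length, a description across genes.

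**Figure D3:**
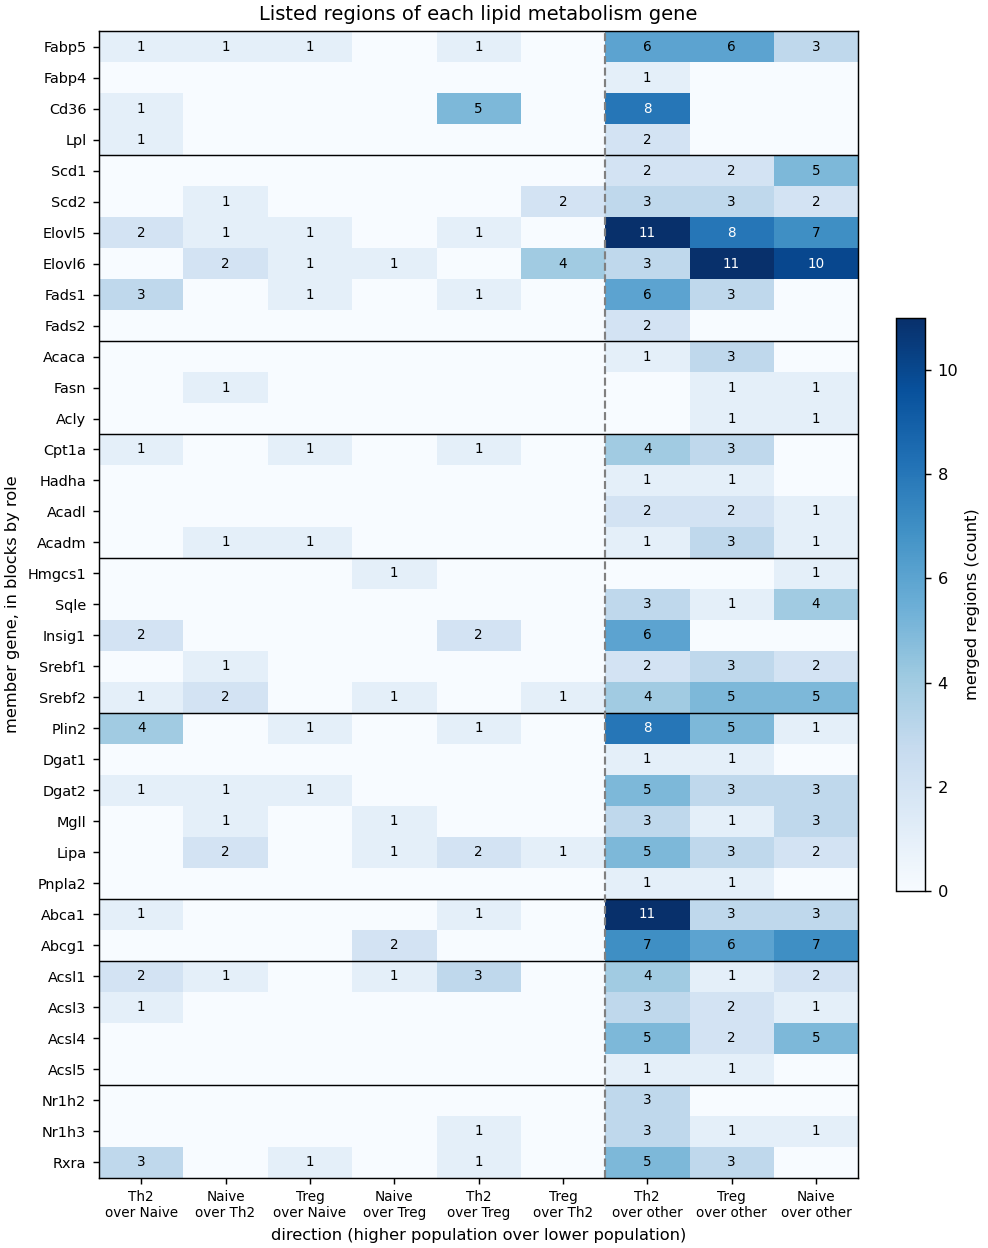
Number of merged regions of each of the 37 members (rows, in blocks by role) in each direction (columns, higher over lower population; "other" is other effector cells, right of the dashed line). Cd36 and Insig1 have counts in Th2 directions only, whereas Elovl6 has 4 regions in Treg over Th2 cells and none in Th2 over naive or Treg cells.

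The 4 genes of fatty acid uptake and binding held 22 regions. Over other effector cells 17 were higher in Th2 (77.3%), 6 in Treg (27.3%) and 3 in naive cells (13.6%), against 53.2%, 46.7% and 33.7% of all regions. In Th2 over Treg cells there were 6, or 27.3% against 6.72%, and 0 in reverse, but 5 of the 6 were at Cd36 and 1 at Fabp5. Cd36, the fatty acid transporter, held 8 regions, all inside the gene on chromosome 5 and all higher in Th2 over other effector cells, and none was higher in Treg or naive cells in any list. Over Treg cells, 5 of the 8 were higher in Th2 cells. The region at 17835780 to 17836084, which covers 238 bases of the promoter shown above, had folds of 5.91 over Treg and 5.90 over other effector cells in the authors' deposited tables. The 1 start site held for Cd36 lies inside the annotated gene, and this region was 53027 bp from the nearer gene end. The regions at 17839614 to 17839763 (6.79 and 6.79), 17854581 to 17854817 (6.83 and 6.83) and 17879837 to 17880223 (6.83 and 6.83) had near-equal folds in the authors' deposited tables, both of which share the Th2 libraries. The lists give no signal for the lower populations, so whether it was near background, here or at other members, was not tested. Only the region at 17842054 to 17842773 was also higher than in naive cells, at 5.43, with 6.42 over Treg and 6.79 over other effector cells, per the authors' deposited tables. The remaining 3 were listed over other effector cells only, with folds from 3.91 to 4.07, as listed in the authors' deposited tables. Cd36 thus set Th2 apart from the other lung populations at most of its regions, and from naive cells at 1.

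Regions of myeloid marker genes were listed in the same direction, and those of the T cell markers were not, with 0 of 6 higher in Th2 in any list. Of 78 regions of the 15 myeloid markers, 16, over 10 genes, were higher in Th2 than in Treg cells, or 20.5% against 6.72% of all regions, and 0 were higher in Treg cells. Over other effector cells, 74.4% were higher in Th2, 24.4% in Treg and 29.5% in naive cells, against 53.2%, 46.7% and 33.7% of all regions. Over naive cells 12, or 15.4% against 9.67%, were higher in Th2 cells, 5 of them at Cebpb. In reverse 5 were higher in naive cells, or 6.41% against 9.21%. Itgax had 4 regions higher in Th2 than in Treg cells, Fcgr1 3, Mertk 2 and Cd68, Csf1r, Siglecf, Marco, Adgre1, Cebpa and Cebpb 1 each, whereas Spi1, Mrc1 and Itgam had 0 and Lyz2 and Chil3 had no region in any list. Macrophages also express Cd36, Fabp4, Fabp5, Lpl, Plin2, Lipa and Nr1h3. The part of other cells in the regions of these genes was not tested. Adipocyte, lung epithelial, endothelial and B cell markers had 1, 0, 2 and 0 regions higher in Th2 than in Treg cells. The 4 B cell markers had 20 regions, of which 17 were higher in naive over other effector cells, or 85.0% against 33.7% of all regions, and 5 in naive over Th2 cells, or 25.0% against 9.21%, with 0 in reverse. The part of B cells in the member regions higher in naive cells was not tested.

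The other uptake genes had fewer regions in the gene itself. Lpl, the lipase that frees fatty acids from lipoproteins, had 2 regions, both outside the gene on chromosome 8 and both higher in Th2 over other effector cells (4.23 and 4.94), by the authors' deposited tables. The one at 68926221 to 68926808, 19582 bp from the gene, was also higher than in naive cells, at 5.11 in the authors' deposited tables. Fabp4, a fatty acid binding protein of fat cells and macrophages, had 1 region, higher in Th2 over other effector cells at 5.57, per the authors' deposited tables. Fabp5, the epidermal form, had 11, of which 10 lay outside the gene on chromosome 3. Th2 and Treg cells were each higher than other effector cells at 6 of them. The region at 10012233 to 10013349 spans the gene boundary at 10012585, with its midpoint 206 bp inside the gene. It was higher in Th2 over other effector cells at 5.75, as listed in the authors' deposited tables. That at 10022580 to 10022729, 6044 bp from the gene, was higher in Th2 over Treg cells at 5.98, by the authors' deposited tables. A region 71175 bp away was higher in Th2 over naive cells (4.11), one 29624 bp away in Treg than in naive cells (4.67), and one 43861 bp away in naive than in Th2 cells (5.32), by the authors' deposited tables. The regions of Fabp5 thus had no single direction.

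The 6 desaturases and elongases held 57 regions. Over other effector cells, 47.4% were higher in Th2, 47.4% in Treg and 42.1% in naive cells, against 53.2%, 46.7% and 33.7% of all regions. In Treg over Th2 cells these genes had 6, or 10.5% against 3.34% of all regions, 4 of them at Elovl6 and 2 at Scd2. Elovl6, which lengthens saturated C16 fatty acids, had the most of any member, 19, of which 16 lay inside the gene on chromosome 3. Treg cells were higher than other effector cells at 11 of them, naive cells at 10 and Th2 cells at 3. Treg cells were higher than Th2 cells at 4 regions, all within the gene: 129562346 to 129562752 (4.90), 129565859 to 129566008 (4.61), 129566119 to 129566295 (5.43) and 129588680 to 129589017 (4.38), per the authors' deposited tables. The first of these was also higher in naive than in Th2 cells (5.60) and the third in Treg than in naive cells (4.60), per the authors' deposited tables. A region 37980 bp outside the gene, at 129494061 to 129494752, was higher in naive than in Th2 (6.27), Treg (6.09) and other effector cells (6.09), as listed in the authors' deposited tables. No region of Elovl6 was higher in Th2 than in naive or Treg cells.

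Elovl5, the elongase of polyunsaturated fatty acids, had 18 regions, with 11 higher in Th2, 8 in Treg and 7 in naive over other effector cells. Inside the gene on chromosome 9, the region at 77930861 to 77931219 was higher in Th2 over naive cells at 7.17 and in Treg than in naive cells at 5.01, by the authors' deposited tables. Another, at 77958391 to 77959059, was listed in naive over other effector cells only, at 5.76 in the authors' deposited tables. The promoter region at 77916939 to 77918505 was listed in Treg over other effector cells alone, at 6.77, per the authors' deposited tables. A region 58673 bp outside the gene was higher in Th2 over naive cells (4.24), one at 77928284 to 77928527 in naive than in Th2 cells (4.84), and one at 77959951 to 77960100 in Th2 than in Treg cells (4.53), as listed in the authors' deposited tables. A region 6500 bp upstream was among the highest of all member regions in Treg over other effector cells, at 8.14, by the authors' deposited tables. The same region was higher in Th2 over other effector cells at 8.10, by those tables.

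The front desaturase genes lie beside one another on chromosome 19. Fads1, the delta-5 desaturase, had 6 regions, of which 6 in Th2 and 3 in Treg cells exceeded other effector cells. Those at 10171450 to 10172168 (5.50), 10173420 to 10173760 (5.28) and 10190844 to 10191251 (4.36) were higher in Th2 over naive cells in the authors' deposited tables. The first was also higher in Th2 than in Treg cells (5.33), and the second in Treg than in naive cells (4.92), per the authors' deposited tables. Fads2, the delta-6 desaturase, had 2, both higher in Th2 over other effector cells (4.11 and 4.16), as listed in the authors' deposited tables. None of the 8 was higher in naive cells in any list.

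The stearoyl-CoA desaturases, which make oleate, differed from these. Scd1 had 5 regions, all outside the gene on chromosome 19 and all 5 higher in naive over other effector cells, with 2 each higher in Th2 and Treg over other effector cells. Scd2 had 7, of which 2 were higher in Treg than in Th2 cells, at 44282506 to 44282908 (5.18) and 44283083 to 44283492 (7.01, the highest fold of any member in that direction), by the authors' deposited tables. The former was also higher in naive than in Th2 cells, at 4.95 in the authors' deposited tables. Neither gene had a region higher in Th2 than in naive or Treg cells.

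The synthesis genes were sparse. Acly, Acaca and Fasn, which turn citrate into palmitate, held 7 regions between them, 5 of them higher in Treg and 1 in Th2 over other effector cells, or 71.4% and 14.3% against 46.7% and 53.2% of all regions. Fasn, the fatty acid synthase, had a promoter region on chromosome 11 at 120823578 to 120824821 that was higher in Treg over other effector cells at 8.43, the highest fold of any member in that direction, by the authors' deposited table, and that was in no list for Th2 or naive cells. A second region, 539 bp outside the gene at 120825538 to 120825872, was higher in naive than in Th2 (4.04) and other effector cells (6.06), per the authors' deposited tables. Acaca (ACC1) had 3 regions inside the gene, all higher in Treg and 1 higher in Th2 over other effector cells. That shared region, at 84179160 to 84180558, had folds of 7.22 in Th2 and 7.27 in Treg cells, as listed in the authors' deposited tables. Acly had 2 regions inside the gene, 1 higher in Treg (4.13) and 1 in naive over other effector cells (4.30), by the authors' deposited tables.

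Acyl-CoA synthetases, which activate fatty acids for any further use, had 18 regions, 13 of them higher in Th2 over other effector cells, or 72.2% against 53.2% of all regions. Treg cells were higher at 33.3% and naive cells at 44.4%, against 46.7% and 33.7%. Acsl1 had 3 regions higher in Th2 than in Treg cells on chromosome 8, at 46395371 to 46395810 (5.13), 46430041 to 46430231 (5.21) and 46497488 to 46497946 (5.65), per the authors' deposited tables. The first 2 lie outside the gene, 75447 and 40901 bp away, and the last inside it. The first and the last were also higher in Th2 over naive cells, at 5.43 and 5.82, per the authors' deposited tables. A region 7377 bp outside the gene, at 46543137 to 46543719, went the other way, higher in naive than in Th2 (4.28), Treg (4.65) and other effector cells (6.59), as listed in the authors' deposited tables. Acsl3 had 1 region higher in Th2 over naive cells (4.50), and its promoter region was higher over other effector cells in all 3 of Th2 (7.52), Treg (6.96) and naive cells (7.94), by the authors' deposited tables. Acsl4 had 7 regions, 5 each higher in Th2 and in naive over other effector cells, and Acsl5 had 1, at its start site (6.55 in Th2 and 5.43 in Treg over other effector cells) in the authors' deposited tables.

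**Figure D4:**
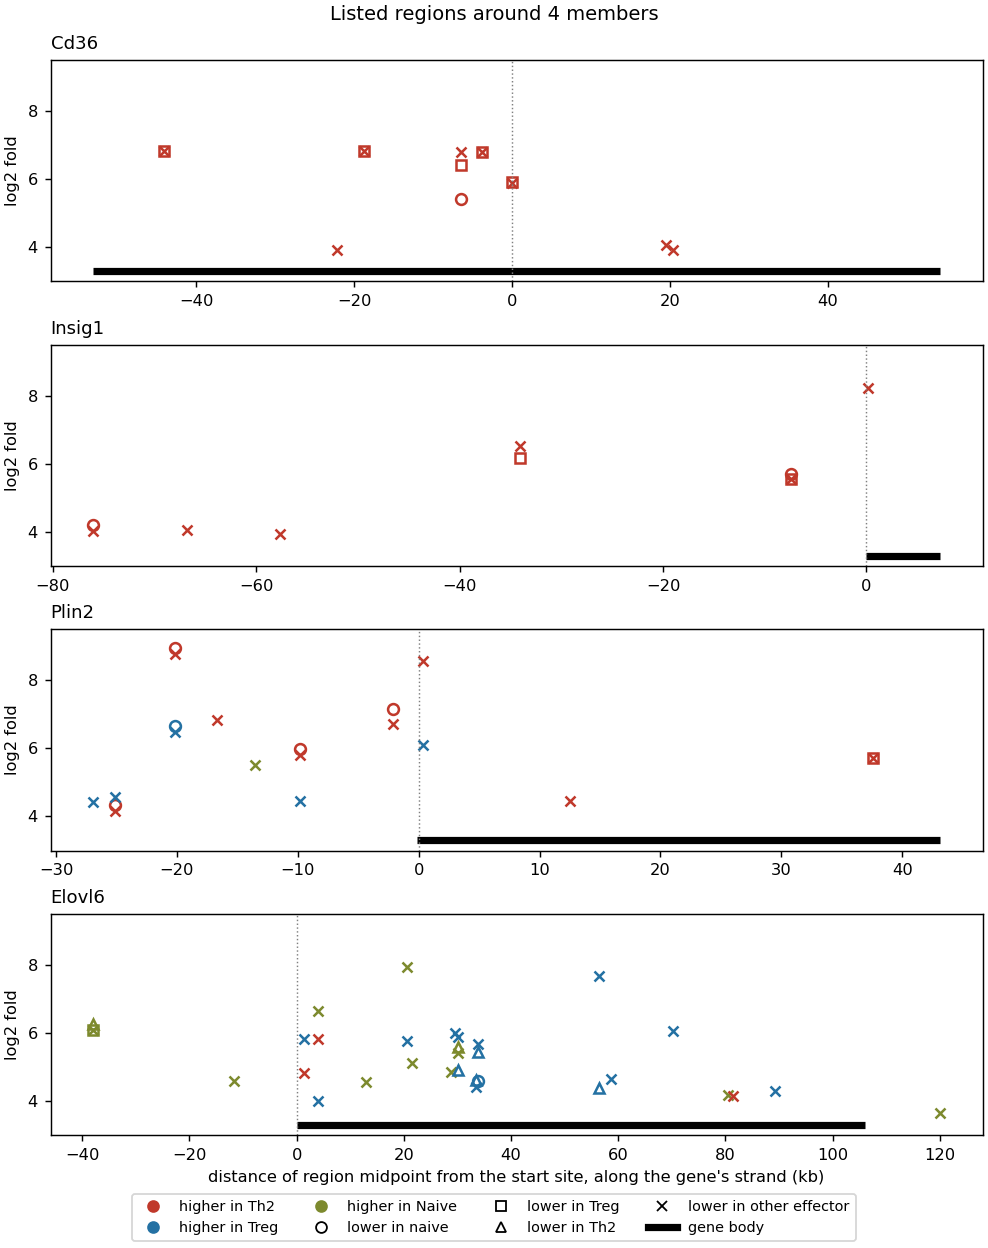
Regions of Cd36, Insig1, Plin2 and Elovl6 by the distance of their midpoint from the start site along the gene's strand (x, kb) and log2 fold (y). The start site held for Cd36 lies inside the annotated gene. Colour gives the higher population, marker shape the lower one, and the bar the annotated gene. Every Cd36 and Insig1 region is higher in Th2 cells, the Plin2 regions higher in Th2 over naive cells lie upstream of the start, and the Elovl6 regions higher in Treg than in Th2 cells lie inside the gene.

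Genes of lipid storage and breakdown had 31 regions, of which 74.2% were higher in Th2 over other effector cells, against 53.2% of all regions. Treg cells were higher at 45.2% and naive cells at 29.0%, against 46.7% and 33.7%. Plin2, which coats lipid droplets, had 10 regions on chromosome 4, with 8 higher in Th2, 5 in Treg and 1 in naive over other effector cells. All 4 that were higher in Th2 over naive cells lay outside the gene, upstream of its start: 86671825 to 86672544 (7.16), 86679626 to 86680076 (5.98), 86689806 to 86690543 (8.94) and 86694941 to 86695404 (4.34), per the authors' deposited tables. They lay 1967, 9634, 19957 and 24955 bp from the gene. The fold of 8.94 was the highest of any member region in any list, and the same region was higher in Treg over naive cells at 6.66, as listed in the authors' deposited tables. Over other effector cells that region was higher in Th2 (8.77) and Treg cells (6.49), by the same tables. The promoter region at 86669181 to 86670263 was higher over other effector cells in Th2 (8.58) and Treg cells (6.11) by the authors' deposited tables, but was in no list with naive cells. At 86632216 to 86632783, inside the gene, Th2 cells were higher than Treg cells at 5.72, by the authors' deposited tables. No Plin2 region was higher in naive than in Th2 or Treg cells.

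Dgat1 and Dgat2 make triglyceride. Dgat1 had 1 region, which overlaps an end of the gene but has its midpoint 95 bp outside. It was higher in Th2 (8.10) and Treg (7.25) than in other effector cells in the authors' deposited tables. Dgat2 had 7 on chromosome 7. The one at 99191353 to 99191783 was higher in Treg over naive cells at 7.57, the highest member fold in that direction, and in Th2 than in naive cells at 5.01, per the authors' deposited tables. The one at 99152592 to 99153153, 791 bp from the gene, was higher in naive than in Th2 cells at 6.98, as listed in the authors' deposited tables.

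The lipases were mixed. Lipa, the lysosomal acid lipase, had 7 regions inside the gene on chromosome 19, pointing both ways. Higher in Th2 than in Treg cells were 34515740 to 34516245 (7.18) and 34520282 to 34520505 (6.01), by the authors' deposited tables. Higher in naive than in Th2 cells were 34504994 to 34505664 (7.13, the highest member fold in that direction) and 34510697 to 34511228 (6.15) in the authors' deposited tables. The first of the naive pair was also higher in Treg than in Th2 cells (6.33), where the Treg row ends at 34505553, and the second was higher in naive than in Treg cells (5.98), per the authors' deposited tables. Mgll, which splits monoglycerides, had 5, 1 of them, at 88782880 to 88783433 of chromosome 6, higher in naive than in Th2 (5.03) and Treg cells (4.85), as listed in the authors' deposited tables. Pnpla2 (ATGL), which starts the breakdown of triglyceride, had 1 region, at its promoter, higher in Th2 (6.63) and Treg (7.28) than in other effector cells, by the authors' deposited tables.

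Oxidation genes had 14 regions, of which 8 were higher in Th2 and 9 in Treg over other effector cells, or 57.1% and 64.3% against 53.2% and 46.7% of all regions. Cpt1a, the gate of mitochondrial fatty acid entry, had 5 on chromosome 19, all inside the gene. The one at 3334055 to 3334390 was higher than in naive cells in both Th2 (6.19) and Treg cells (5.94), and the one at 3378734 to 3378941 was higher in Th2 than in Treg cells (6.02) in the authors' deposited tables. Its promoter region was higher in Th2 (7.74) and Treg (7.68) over other effector cells, per the authors' deposited tables. Acadm, the medium-chain dehydrogenase, had 1 region higher in Treg over naive cells (5.03) and 1, 695 bp outside the gene, higher in naive than in Th2 cells (3.87), as listed in the authors' deposited tables. Acadl, the long-chain dehydrogenase, had 4 and Hadha, of the trifunctional protein, had 1, all listed only against other effector cells. The start-site region of Acadl was at 7.73 in Th2 and 5.72 in Treg over other effector cells, by the authors' deposited tables.

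The 5 SREBP and cholesterol synthesis genes held 25 regions. Over other effector cells, 60.0% were higher in Th2, 36.0% in Treg and 48.0% in naive cells, against 53.2%, 46.7% and 33.7% of all regions. Insig1 was the one of these genes listed for Th2 cells alone. It had 6 regions on chromosome 5, and all 6 were higher in Th2 over other effector cells. The promoter region at 28070815 to 28072249 had a fold of 8.24 there in the authors' deposited table and was in no other list. The region at 28063597 to 28064482, 7373 bp upstream, was higher in Th2 than in naive (5.69), Treg (5.55) and other effector cells (5.54) in the authors' deposited tables. That at 28037078 to 28037598 was higher than in Treg (6.17) and other effector cells (6.53), and that at 27995232 to 27995524 than in naive (4.19) and other effector cells (4.02), per the authors' deposited tables. No Insig1 region was higher in Treg or naive cells in any list.

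The SREBP genes went both ways. Srebf2, which drives sterol synthesis, had 8 regions inside the gene on chromosome 15. Naive cells were higher than Th2 cells at 82162310 to 82162529 (6.55) and 82186677 to 82187471 (6.95), as listed in the authors' deposited tables. The former was also higher in naive than in Treg cells (6.37), and the latter in Treg than in Th2 cells (5.96), by the authors' deposited tables. Th2 cells were higher than naive cells at 82156875 to 82157220 (5.32) in the authors' deposited tables. Its promoter region was higher in Th2 (7.53) and Treg (8.24) than in other effector cells, and the region at 82165909 to 82167017 had the highest member fold in naive over other effector cells, 8.44, per the authors' deposited tables. Srebf1, of fatty acid synthesis, had 4, of which 1, 846 bp inside the gene's end, was higher in naive than in Th2 cells (4.40), as listed in the authors' deposited tables.

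Of the enzymes, neither Hmgcs1 nor Sqle had a region higher in Th2 than in naive or Treg cells. Hmgcs1, which makes HMG-CoA, had 1 region, inside the gene on chromosome 13 at 119706334 to 119707356, higher in naive than in Treg (7.01) and other effector cells (7.01), by the authors' deposited tables, and in no Th2 list. Sqle, squalene epoxidase, had 6 regions, all with midpoints outside the gene and none listed among naive, Th2 and Treg cells. The one whose midpoint lay 20 bp outside, at 59314567 to 59315577, overlaps an end of the gene. It was higher in Th2 over other effector cells at 6.78, by the authors' deposited tables.

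Sterol exporters held 23 regions, 18 of them higher in Th2 (78.3%), 9 in Treg (39.1%) and 10 in naive over other effector cells (43.5%), against 53.2%, 46.7% and 33.7% of all regions. Abca1, which loads cholesterol onto apolipoprotein, had 12 on chromosome 4, with 11 higher in Th2 against 3 each in Treg and naive cells. The one at 53121947 to 53122299, inside the gene, was higher in Th2 than in naive (6.90), Treg (6.52) and other effector cells (6.52) in the authors' deposited tables. The promoter region was higher over other effector cells in Th2 (7.25), Treg (6.85) and naive cells (8.22), per the authors' deposited tables. Abcg1, which exports cholesterol to lipoprotein particles, had 11 on chromosome 17, with 7 in Th2, 6 in Treg and 7 in naive cells. Its region at 31060632 to 31061626 was at 8.40 in naive, 5.29 in Treg and 4.57 in Th2 over other effector cells, per the authors' deposited tables. Naive cells were higher than Treg cells at 31082240 to 31082617 (4.48) and 31089764 to 31090364 (4.22) by the authors' deposited tables. No Abcg1 region was listed between naive and Th2 cells.

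Nuclear receptor genes had 13 regions, 11 higher in Th2 (84.6%), 4 in Treg (30.8%) and 1 in naive over other effector cells (7.69%), against 53.2%, 46.7% and 33.7% of all regions, and 0 of them were higher in naive than in Th2 or Treg cells. Rxra had 7 on chromosome 2, of which 3 were higher in Th2 over naive cells: 27728034 to 27728900 (6.42), 27740092 to 27740553 (7.11) and 27764987 to 27765393 (4.28), as listed in the authors' deposited tables. Its region at 27688009 to 27688247 was higher in Th2 than in Treg cells (6.63), and that at 27729007 to 27729399 in Treg than in naive cells (4.76), by the authors' deposited tables. Nr1h3 (LXR alpha) had 3, and the one at 91196786 to 91197102 had the highest member fold in Th2 over Treg cells, 7.49 in the authors' deposited tables. Nr1h2 (LXR beta) had 3 on chromosome 7, all higher in Th2 over other effector cells alone (4.50 to 5.25), per the authors' deposited tables.

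Regions were also counted by position. Inside a gene lay 58.6% of the 210, against 60.3% of all regions. Within 1 kb of an annotated start site, of any gene, lay 32, or 15.2% (exact 95% interval 10.7% to 20.8%), against 21.1% of all regions. The start sites are those of the RefSeq table, which holds none for 10 of the members. These 10 had 57 regions, 10 of them within 1 kb of a gene end. Over regions of genes with a start site in the table, an alternative chosen after the values were seen, the shares were 18.3% (12.5% to 25.4%) of 153 member regions and 26.8% of 39624. Among the 24 member regions higher in Th2 over naive cells 0 lay near a start site, an interval of 0.0% to 14.2%, which includes the 11.3% of all regions of that direction. In Treg over Th2 cells 2 of 8 did (25.0%, 3.19% to 65.1%, against 9.46%), and in naive over Th2 cells 1 of 15 (6.67%, 0.169% to 31.9%, against 4.90%). Over regions of genes with a start site held, the counts were 0 of 6 (against 12.0%) and 0 of 12 (against 5.86%). The start sites near those regions were thus those of other genes. Promoter windows of 19 members were overlapped by regions higher in Th2, of 16 by regions higher in Treg and of 5 by regions higher in naive cells, each over other effector cells. By window, these were 60.6%, 51.5% and 21.2% of the 33, against 27.4%, 24.6% and 4.51% of all 32851 promoter windows, which include those of genes with no listed region. Against naive cells the windows of 0 members were overlapped in either direction, so the member regions that separated naive cells from Th2 and Treg cells lay outside the promoter windows held.

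A wider list of 94 other lipid genes, with 223 regions, was counted in the same way. Of its regions, 29, or 13.0% against 9.67% of all regions, were higher in Th2 over naive cells, over 14 genes, and 11, or 4.93% against 9.21%, in naive cells, over 10 genes. Between Th2 and Treg cells 15 were higher in Th2 cells, or 6.73% against 6.72%, and 4 in Treg cells, or 1.79% against 3.34%. Over other effector cells 67.7%, 52.9% and 27.4% were higher in Th2, Treg and naive cells, against 53.2%, 46.7% and 33.7%. Pparg, which is also among the 6 Th2 markers above, held 8 of the 29 and Lpin2, a phosphatidate phosphatase, 4. In Treg over Th2 cells, 3 of the 4 were at Mlxipl, the carbohydrate-responsive factor ChREBP. Over other effector cells Nceh1, a cholesteryl ester hydrolase, had 12 regions and Pparg 11 that were higher in Th2 cells. By role, the shares to compare with were 9.67% of all regions in Th2 over naive cells and 9.21% in reverse. Cholesterol synthesis genes held 2 regions (5.88%) each way, and oxidation genes 0 (0.0%) and 1 (5.56%). Droplet and triglyceride turnover genes held 10 (16.1%) and 3 (4.84%). Nuclear receptors and coactivators held 10 (27.0%) and 2 (5.41%), and 8 of the 10 were at Pparg. SREBP control genes held 2 (11.1%) each way, and synthesis and modification genes 3 (15.8%) and 1 (5.26%). Uptake genes held 1 (9.09%) and 0 (0.0%), and sterol export genes 1 (4.17%) and 0 (0.0%).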

How the data were processed

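ATAC-seq libraries of 4 populations were compared in 6 lists. The authors deposited, for each region, a position and a fold, read here as log2, the scale on which DiffBind, the tool in the submitters' processing notes, reports it. The sources used here give no version, aligner, peak caller, normalization or threshold. At the 4 regions present in all lists of a triple of populations the folds were additive (largest residual 0.0), which leaves the list of naive against other effector cells unchecked. Marker genes gave the direction, first-named minus second-named population; for that list, which has 1 sign throughout, it rests on the list holding 66 of the 79 naive marker regions. The submitters' processing notes name mm9, but 21.0% of regions lay within 1 kb of a GRCm38.p6 start site, against 3.02% to 4.11% after shifts of 10000 to 1000000 bp, so positions are given as GRCm38, 1-based. For naive and other effector cells the description says day 10 and the title 15, which was followed.

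Regions were assigned to 21900 protein-coding RefSeq genes and merged at an overlap of at least 1 bp, with Python 3.11.15 and pandas 2.3.3. Assignment and merging were tested on simulated data. No replicate values were given, so no test was run, and counts stand beside the share of all merged regions. Intervals are exact binomial, from scipy 1.17.1. The rule for giving positions named the 3 largest folds of a direction, the 6 members with most regions and regions within 1 kb of a gene end. It was followed in part, since not every region of those 6 members is given. Other positions were chosen after their values were seen. Members and lists were chosen with earlier results of these data known. Some genes of the wider list are not reported here by name.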

Additional observations from a re-analysis of the deposited data

How the results depend on the processing

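Alternatives changed 1 choice at a time, and a count is named where it moved by over 1.5 times. With regions outside genes kept only within 10 kb, member regions fell from 24 to 15 in Th2 over naive cells and from 71 to 47 in naive over other effector cells. With midpoints inside a member gene only, they were 9 in Th2 over naive, 8 in naive over Th2, 4 in Treg over naive, and 75, 59 and 38 in Th2, Treg and naive over other effector cells. With folds at or above the median of each list, they were 11 in Th2 over naive, 7 in naive over Th2, 3 in Treg over naive, 4 in naive over Treg, 3 in Treg over Th2, and 65, 43 and 35 in Th2, Treg and naive over other effector cells. Each of these settings keeps fewer regions by its construction. Without Elovl6, a choice made after seeing the data, 4 of 8 regions were left in Treg over Th2 cells. Leaving out regions inside another gene, merging at a larger mutual overlap, leaving out the lists of other effector cells, and leaving out Cd36 moved no count that far. Relative to all regions, the share in Th2 over naive cells ranged from 0.757 to 1.30 times, so it was on neither side throughout, and that in Th2 over Treg cells from 1.10 times, without Cd36, to 2.36 times. In Th2 over other effector cells it ranged from 1.15 to 1.28 times. No paired analysis was possible because the lists hold no replicate values. Depth is unknown, so what it limits could not be stated.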
